A study of Mus musculus with 6 samples.

Results

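END_13 is an endothelial cluster from single-cell RNA-Seq of mouse striatum, made up almost wholly of neonatal cells with few transcripts. Its members were the cells that carry the name END_13 in the deposited cell annotation, 341 of 14373 annotated cells, and their counts were found by their cell identifiers. The study compared striatal cells of wild-type male C57BL/6 mice at postnatal day 3 (P3) with those at 3 months of age (3m), using 3 libraries for each age. Brains of several animals were combined in each preparation, red blood cells were lysed, and cells that carry ACSA2, a surface antigen of astrocytes, were pulled out with magnetic beads before droplet capture. The study used no surface marker of endothelial cells, so each endothelial cell here came through a selection aimed at another cell type. The P3 libraries had 2515 to 5039 annotated cells and 32193875 to 37795021 UMIs (unique molecular identifiers, each counting 1 captured transcript), and the 3m libraries had 801 to 1399 annotated cells and 5471573 to 10522151 UMIs. Of the 341 END_13 barcodes, 1 also occurred in another library, against 37 barcodes in the series that did.

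Endothelial cells line blood vessels, and in the brain they form the blood-brain barrier by means of tight junctions, such as those of claudin 5 (*Cldn5*), and of transporters such as the glucose carrier *Slc2a1*. In the first weeks after birth the vessels of the brain still grow, with tip cells that express apelin (*Apln*) leading new sprouts and venous and capillary cells dividing behind them. Along a vessel, arterial cells express connexin 37 (*Gja4*) and *Sox17*, capillary cells the lipid carrier *Mfsd2a*, and venous cells *Nr2f2*, *Slc38a5* and von Willebrand factor (*Vwf*). *Madcam1*, on chromosome 10 at 79664559 to 79668537, encodes an adhesion molecule, known from vessels of the gut, that binds a leukocyte integrin. *Slc38a5*, on chromosome X at 8271133 to 8280179, encodes a glutamine transporter, and *Aplnr*, on chromosome 2 at 85136225 to 85139923, the receptor for apelin. *Ramp2*, on chromosome 11 at 101246028 to 101259546, encodes the partner protein with which the calcitonin receptor-like receptor binds adrenomedullin. All 4 are protein-coding genes on the plus strand (GENCODE M21, GRCm38), and they are the markers given with the cluster.

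The endothelial name held against endothelial genes, cell by cell. Of the 341 END_13 cells, 339 had a UMI of at least 1 of 15 endothelial genes (*Pecam1*, *Cdh5*, *Cldn5*, *Kdr*, *Flt1*, *Tek*, *Tie1*, *Esam*, *Egfl7*, *Emcn*, *Eng*, *Erg*, *Robo4*, *Ecscr* and *Icam2*), and 289 had at least 3 of these genes. Summed over cells, the 15 genes reached 4110, 3411 and 4364 CPM (counts per 1000000 UMIs of the same cells) in P3 replicates 1, 2 and 3 of END_13, against 9.0, 8.72 and 32.9 CPM in the astroglial cells of the same libraries. Astroglial transcripts were present as well: all but 16 END_13 cells had a UMI of at least 1 of 10 astroglial genes, *Slc1a3*, *Fabp7*, *Aldoc* and *Sox9* among them, and 254 had at least 3 of them. *Fabp7*, the fatty acid binding protein of radial glia and young astrocytes, was found in 292 of the 341 cells. Markers of microglia were missing from 340 of the 341 cells, with *Cx3cr1* and *P2ry12* at 0 UMIs, and markers of neurons from 306.

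END_13 was a neonatal cluster in these libraries, but it was spread unevenly among them. It held 42 cells of P3 replicate 1, 15 of P3 replicate 2, 282 of P3 replicate 3 and 2 of 3m replicate 3, and none of 3m replicates 1 and 2. As shares of all annotated cells these were 1.67% (95% Wilson interval 1.24 to 2.25%), 0.413% (0.25 to 0.68%), 5.6% (5.0 to 6.27%) and 0.203% (0.0557 to 0.737%), and the 0 cells of 3m replicates 1 and 2 allow shares of up to 0.375% and 0.214%. Intervals and limits cover counting error only. Each P3 share lay above each 3m share, and P3 replicate 3 alone held 82.7% of the cluster. The mean share was 2.56% ± 2.70 (SD, n = 3) at P3 and 0.0677% ± 0.117 (SD, n = 3) at 3m, a difference of 2.49 percentage points with p = 0.1 in an exact two-sided permutation test, the smallest p that 3 against 3 libraries can give. Without P3 replicate 3 the difference was 0.974 points. Counting only the END_13 cells of at most 5000 UMIs, P3 replicate 2 fell to 0.138%, below 3m replicate 3, and the difference was 2.31 points (exact permutation p = 0.2). END_13 was picked with its neonatal make-up known, so these tests give that make-up no independent support. Among the cells of the 4 endothelial clusters, END_13 made up 19.4%, 7.94% and 31.8% in the 3 P3 libraries.

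END_13 cells held few UMIs. Their median was 1220, 6395 and 1364 UMIs per cell in P3 replicates 1, 2 and 3, whereas END_7, the main neonatal endothelial cluster with 605 cells, had medians of 32603, 22396 and 26229 UMIs in the same libraries. The median of END_7 was thus 26.7, 3.5 and 19.2 times that of END_13. Over the 3 libraries the median was 2993 ± 2947 (SD, n = 3) in END_13 and 27076 ± 5156 (SD, n = 3) in END_7, a difference of -24083 UMIs with p = 0.25 in an exact two-sided sign-flip permutation test, the smallest p that 3 pairs can give. The low depth of END_13 was known when the cluster was picked, so this test gives it no independent support. END_12, another neonatal endothelial cluster with 346 of its 349 cells in P3 replicate 3, had a median of 1252.5 UMIs there, close to the 1364 of END_13. By single cells, 102 END_13 cells had fewer than 1000 UMIs, 214 had 1000 to 5000 and 25 had more, 10 of the last in P3 replicate 2 and 15 in P3 replicate 3. These 25 deep cells supplied 36.4% of all UMIs of END_13 at P3, and 91.2% of those in P3 replicate 2. The filter of the study kept cells with over 500 genes, and 61 END_13 cells had at most 600 genes. Mitochondrial UMIs were few, with median shares of 1.78%, 1.71% and 0.789% per cell in the 3 P3 libraries, against 2.33%, 1.77% and 1.25% in END_7.

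**Figure D1:**
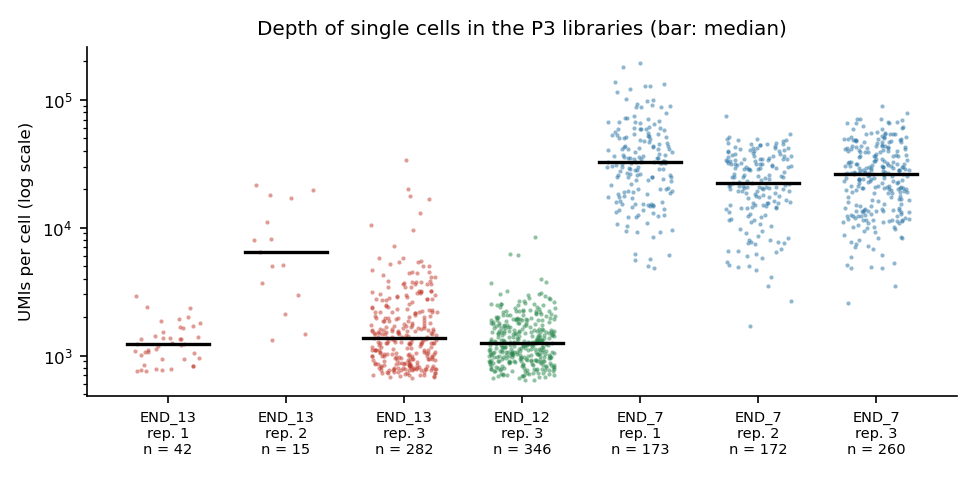
UMIs per cell on a log axis for each P3 library of END_13, END_12 and END_7, where each point is a cell and each bar the median of a library. END_13 cells of P3 replicates 1 and 3 and END_12 cells gather near 1000 UMIs with medians from 1220 to 1364, while END_7 medians lie from 22396 to 32603.

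On the deposited UMAP, the 2-dimensional map of all cells, END_13 fell into 3 islands and a few scattered cells. Cells within 0.3 map units of each other were joined in chains, a distance chosen after the map had been seen. Island 1 held 183 cells (3, 11 and 169 in P3 replicates 1, 2 and 3), island 2 held 78 cells, all from P3 replicate 3, and island 3 held 61 cells (35, 1 and 25). The other 19 cells included the 2 adult cells. Island 1 was deeper, with a median of 1979 UMIs and 22 of the 25 deep cells, than island 2 with 925.5 and island 3 with 1073. For 248 END_13 cells the nearest cell of another cluster on the map was in the astroglial cluster AST_P3_4, for 90 in END_7, for 2 in the adult endothelial cluster END_17 and for 1 in AST_P3_3. Like END_13, AST_P3_4 came mostly from P3 replicate 3, with 17, 34 and 983 cells in P3 replicates 1, 2 and 3. Across genes, the summed profile of END_13 was nearest to that of END_7 in each P3 library (Pearson's r of log2 values 0.669, 0.847 and 0.854 over 2153, 1649 and 1769 genes), where genes are not independent replicates. In P3 replicate 1 the astroglial cluster AST_P3_3 was almost as near (0.665), and in P3 replicate 3 the next was END_12 (0.789), with AST_P3_4 at 0.656.

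**Figure D2:**
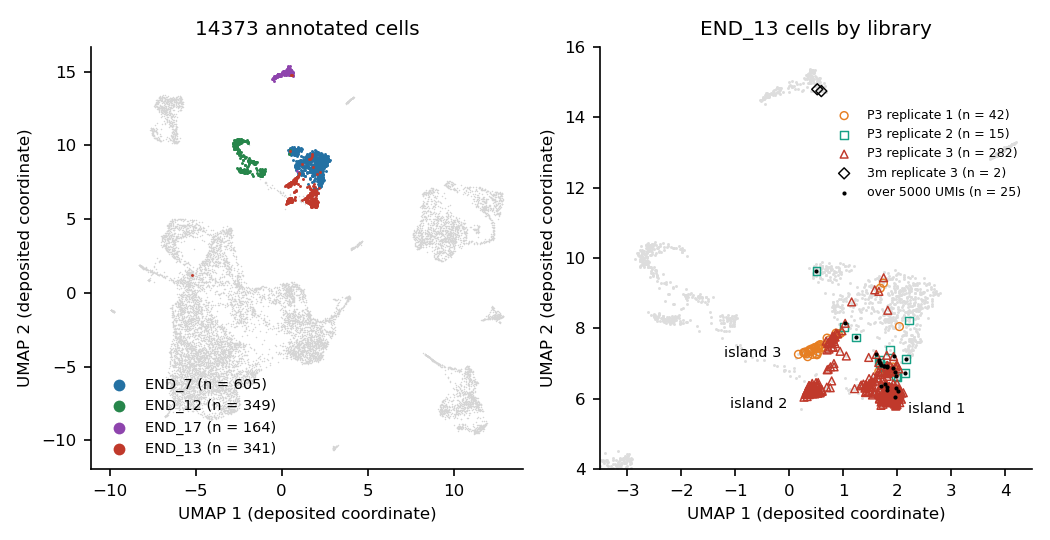
Deposited UMAP coordinates (no unit) of all 14373 annotated cells with the 4 endothelial clusters coloured (left), and the END_13 cells by library (right), where black dots mark the 25 cells with over 5000 UMIs. Island 1 holds 183 END_13 cells, island 2 holds 78 and island 3 holds 61, and the 2 cells of 3m replicate 3 lie among the adult endothelial cells.

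The 4 marker genes did not behave alike. *Madcam1* measured 0, 22.8 and 101 CPM in P3 replicates 1, 2 and 3 of END_13, 11.8, 22.1 and 17.3 CPM in END_7 and 8.07 CPM in END_12 of P3 replicate 3. The ranges of END_13 and END_7 overlapped, and the high value came from P3 replicate 3 alone, where the 95% Poisson interval was 77.6 to 130 CPM in END_13 and 14.5 to 20.6 CPM in END_7. The 0 UMIs in P3 replicate 1 allow up to 54.6 CPM, so a level as in END_7 was not detectable there. *Slc38a5* measured 291, 533 and 766 CPM in END_13, each below the 946, 872 and 797 CPM of END_7, and 210 CPM in END_12. *Aplnr* measured 109, 114 and 76.5 CPM in END_13 and 104, 60.7 and 70.1 CPM in END_7, overlapping ranges, against 12.1 CPM in END_12. *Ramp2* measured 982, 1081 and 1815 CPM in END_13 and 1696, 2087 and 2022 CPM in END_7, where 1 END_13 library reached the END_7 range, and 615.5 CPM in END_12. Against END_12 in P3 replicate 3 all 4 markers were higher. Against END_7 the mean log2 ratios were -0.79 ± 0.80 (SD, n = 3) for *Slc38a5*, 0.30 ± 0.38 for *Aplnr* and -0.62 ± 0.41 for *Ramp2*, none of them 2-fold and, for *Slc38a5* and *Aplnr*, no larger than the spread between libraries.

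By cells, *Ramp2* was found in 300 of the 341 END_13 cells (88%), *Slc38a5* in 195 (57.2%) and *Madcam1* and *Aplnr* in 50 each (14.7%). Of the 50 *Madcam1* cells, 40 had a single UMI and none more than 3. In cells outside the endothelial clusters the shares were 17.6% for *Ramp2*, 0.612% for *Slc38a5*, 0.0387% for *Madcam1* and 0.0542% for *Aplnr*, at the greater depth of those cells. To compare at matched depth, each cell was thinned to 750 UMIs. *Madcam1* was then found in 0%, 0% and 8.75% of END_13 cells in P3 replicates 1, 2 and 3, against 1.16%, 0.581% and 1.15% of END_7 cells. *Slc38a5* was found in 11.9%, 53.3% and 41.8% of END_13 cells against 50.3%, 43.6% and 44.6% of END_7 cells. At 500 UMIs its shares in END_13 were 16.7%, 13.3% and 29.1%, in another order of the libraries. *Ramp2* was found in 52.4%, 60.0% and 77.9% against 73.4%, 80.2% and 76.9%, and *Aplnr* in 2.38%, 6.67% and 4.94% against 3.47%, 4.65% and 3.85%. Astroglial cells, which should lack these transcripts and had median depths of 9665, 8001 and 5456 UMIs before thinning, gave 2.12%, 2.58% and 3.00% for *Ramp2* and at most 0.550% for the other 3 genes. In P3 replicate 3, 46 of the 48 END_13 cells with *Madcam1* also held *Slc38a5* (95.8%), against 53.0% of the other 234 cells, and the former were deeper, with medians of 2333 and 1240 UMIs.

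**Figure D3:**
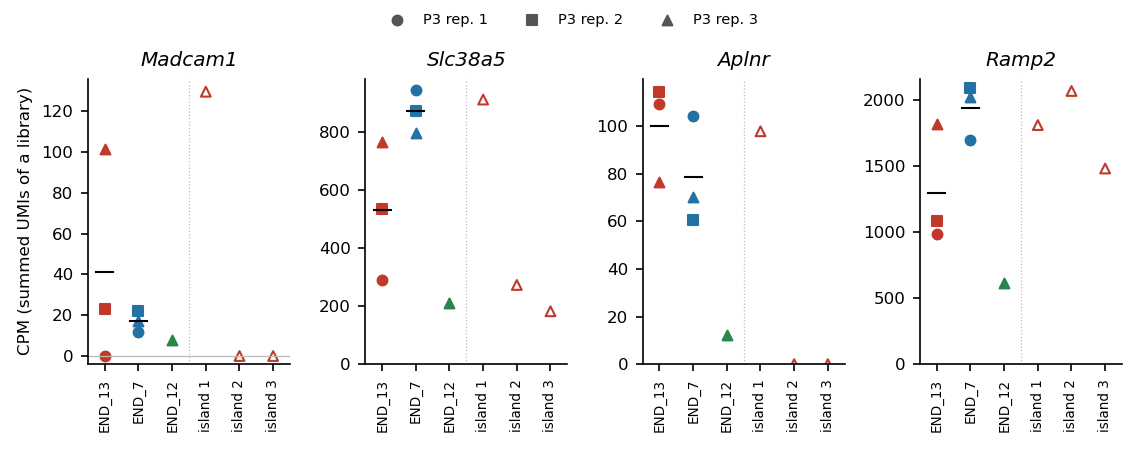
CPM of the 4 marker genes in summed UMIs of END_13, END_7 and END_12, where each filled symbol is a P3 library and each bar the mean of 3 libraries, and, right of the dotted line, in the 3 islands of END_13 in P3 replicate 3 (open triangles). *Madcam1* and *Aplnr* lie at 0 CPM in islands 2 and 3, whereas *Ramp2* lies between 1480 and 2066 CPM in all 3 islands.

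In P3 replicate 3, *Madcam1* and *Aplnr* were found in island 1 and in neither of the other islands. *Madcam1* gave 61 UMIs in island 1 (129.6 CPM, 95% Poisson interval 99.2 to 167) and 0 in islands 2 and 3, which allow up to 39.0 and 68.3 CPM. *Aplnr* gave 46 UMIs in island 1 (97.7 CPM) and 0 in the other islands. The 3 *Madcam1* UMIs of P3 replicate 2 lay in cells outside the 3 islands, and none in its 11 cells of island 1. *Slc38a5* measured 912, 273 and 182 CPM in islands 1, 2 and 3, in the same order, while *Ramp2* measured 1808, 2066 and 1480 CPM. The map was made from these genes, so the islands are described without a test. Of 2014 genes with at least 100 CPM in island 1 or island 2, 108 (5.36%) were at least 2-fold higher in island 1 and 236 (11.7%) at least 2-fold lower. With island 1 held to cells no deeper than the deepest island 2 cell (92 cells), 134 of 2109 genes (6.35%) were higher and 210 (9.96%) lower. Of these, 56 and 143 were shared with the first lists.

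Island 1 had the highest levels of *Car4*, *Fth1* and ribosomal protein genes of the 3 islands. Carbonic anhydrase 4 (*Car4*), an enzyme on the surface of capillary endothelium, measured 793 CPM in island 1, 78.0 in island 2 and 22.8 in island 3. Ferritin heavy chain (*Fth1*), the iron store, measured 28345 CPM against 7434 and 9608, and ribosomal protein genes together 219069 CPM against 126483 and 119692. *Slc6a6*, the taurine transporter of the brain endothelium, measured 155 CPM against 13 and 182 CPM, so islands 1 and 3 were close in it. *Acta2*, smooth muscle actin, gave 68 UMIs in island 1 and 0 in island 2, and *Cks1b*, a cell cycle subunit, 61 and 1. Cell cycle genes as a list measured 1974, 1300 and 842 CPM in islands 1, 2 and 3.

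Of the 3 islands, island 2 had the highest levels of tip cell, basement membrane and pericyte genes. *Apln*, the ligand of *Aplnr*, measured 533 CPM in island 2 against 53.1 in island 1 and 45.5 in island 3. The 10 tip cell genes together reached 962 CPM in island 2, 238 in island 1 and 319 in island 3. *Vwf* measured 221 CPM against 23.4 and 91.1. In the 92 shallow cells of island 1, *Apln* measured 103 CPM and *Vwf* 55.4 CPM. The gene *Ndufa4l2*, of the hypoxia response and of pericytes, measured 728 CPM against 115 and 22.8. Genes of the basement membrane summed to 6524 CPM in island 2, 2932 in island 1 and 4781 in island 3, with *Col4a1*, a chain of type IV collagen, at 845, 402 and 410 CPM. Pericyte and smooth muscle genes summed to 3132, 1133 and 911 CPM in islands 2, 1 and 3, led by vitronectin (*Vtn*) at 1157, 238 and 205 CPM. END_7 of the same library was near island 2. Its tip cell, basement membrane and pericyte lists summed to 824, 6107 and 2705 CPM, with *Apln* at 383 and *Vwf* at 194 CPM. Unlike those of END_13 as a whole, these sums were thus not lower in island 2 than in END_7, although *Col4a1* was. Whether pericyte transcripts in island 2 came from the same cells was not tested.

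Island 3 was the home of most END_13 cells of P3 replicate 1 and had the most astroglial RNA. The 10 astroglial genes summed to 11748 CPM in its P3 replicate 3 cells and 20704 CPM in its P3 replicate 1 cells, against 5315 in island 1 and 6277 in island 2. The nuclear RNA *Malat1* measured 30783 CPM against 8277 and 14439. Arterial genes summed to 1207 CPM in its P3 replicate 3 cells and 355 CPM in its P3 replicate 1 cells, against 450.5 in island 1 and 520 in island 2 of P3 replicate 3. Of the 43921 UMIs of island 3 in P3 replicate 3, 16842 came from 1 cell.

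Set against END_7, the endothelial genes of END_13 lay lower as a share of all UMIs. The sum of the 15 genes was 3961 ± 494 CPM (SD, n = 3) in END_13 and 7921 ± 941 CPM (SD, n = 3) in END_7, and in each library END_13 stood at 45.8%, 44.5% and 61.1% of END_7. In P3 replicate 2 the lower value was that of its 10 deep cells, with 2997 CPM. Its 5 END_13 cells of at most 5000 UMIs gave 7688 CPM, beside 7660 CPM in END_7. A gene was called here where its mean log2 ratio over the 3 P3 libraries, with 20 CPM added to each value, was at least 1 in size, with 1 sign in all 3 libraries, and where the cluster with more of it averaged at least 100 CPM. The clusters were built from these genes, so no test was made. Of 1782 genes, 78 (4.38%) were called higher in END_13 and 113 (6.34%) lower, and the median of all 1782 log2 ratios was -0.14. By sign, 710 of the 1782 lay above 0 and 1072 below. Of the 12 endothelial genes with enough counts, none was called higher and 3 were called lower, all 12 lay below 0 and their median was -0.87. *Cldn5* measured 1273, 1195 and 1333 CPM against 3489, 2806 and 2388 (-1.16), *Flt1*, a VEGF receptor, 345.5, 312 and 274 against 789, 619 and 539 (-1.0), and *Ecscr*, an endothelial surface protein, 145.5, 145 and 329 against 495, 550 and 565 (-1.39). Summed by library, the 2 clusters did not overlap in any of these 3 genes. In the 5 END_13 cells of at most 5000 UMIs of P3 replicate 2, however, *Cldn5* measured 3196 CPM, from 37 UMIs.

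This direction was found with each cluster scaled by all its UMIs. With each cluster scaled to its 15 endothelial genes instead, an alternative chosen after seeing the data, the median log2 ratio of the 1782 genes moved from -0.14 to 0.79, and of all calls 98.8% were higher in END_13 in place of 40.8%. Then 7 of the 12 endothelial genes lay above 0. That count is no evidence on its own, since this scaling makes the sum of the 15 genes equal in both clusters. For the same reason it cannot show whether their share of all UMIs differed. Under this scaling 1610 of all 1782 genes lay above 0, so a turn upward was the common direction. Of the lists below, several turned from mostly below to mostly above 0. These were barrier (12 of 15 above 0), capillary (6 of 8), Wnt pathway (5 of 5) and flow response genes (3 of 3). Angiogenic receptor (7 of 10), interferon and MHC class I (7 of 10) and immediate early genes (5 of 7) turned as well. In contrast, pericyte genes (0 of 6 above 0), haemoglobin genes (0 of 4), basement membrane genes (1 of 9) and astroglial genes (9 of 9) kept their direction.

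Barrier genes were present in END_13 at lower CPM than in END_7. The 18 barrier and transport genes summed to 4045 ± 651 CPM (SD, n = 3) in END_13 and 6891 ± 915 CPM in END_7. Of 15 with enough counts, 2 were called lower, the organic anion carrier *Slco1a4* (-1.04) and the transcription factor *Foxf2* (-1.12), and all 15 lay below 0. Of all 1782 genes, 6.34% were called lower and 1072 lay below 0. *Slc2a1* measured 345.5, 213 and 259 CPM in END_13 and 692, 387 and 303 in END_7, and *Abcb1a*, the drug efflux pump, 54.6, 91.4 and 68.2 against 118, 96.4 and 115. Neither was 2-fold apart, although no library of END_13 reached the lowest of END_7 for *Abcb1a*. Of 8 capillary genes, *Mfsd2a* (-1.09) and *Spock2* (-1.32) were called lower and none higher. *Plvap*, the protein of leaky fenestrated vessels, was near 0 in both (18.2, 0 and 1.66 CPM against 1.85, 2.38 and 2.57).

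Venous, arterial and sprouting genes were mostly too low to compare. Of 11 venous genes, only *Slc38a5* and *Vwf* had enough counts, and *Vwf* measured 0, 7.61 and 59.8 CPM in END_13 against 219.5, 221 and 194 in END_7 (-2.71). Of 14 arterial genes, *Gja4* was called lower (90.9, 45.7 and 86.4 against 184.5, 232 and 217 CPM, -1.33) and *Sox17* was not called (-0.23). Of 10 tip cell genes, *Apln* was called lower (72.7, 15.2 and 123 against 333, 367 and 383 CPM, -2.29), and END_13 and END_7 did not overlap in it. Of 10 receptors of angiogenic signals with enough counts, *Flt1*, the semaphorin receptor *Plxnd1* (-1.1) and the phosphatase *Ptprb* (-1.17) were called lower, and 9 of 10 lay below 0, against 1072 of all 1782 genes. *Ramp2* was the 1 adrenomedullin gene with enough counts, and its partner *Calcrl* measured 54.6, 22.8 and 21.6 CPM in END_13 and 28.6, 33.6 and 41.3 in END_7, with overlap. The adhesion molecules *Sele* and *Selp*, the selectins that mark activated venules, had 0 UMIs in both clusters, and *Vcam1* measured 200, 15.2 and 43.2 CPM in END_13 against 4.98, 6.43 and 6.23 in END_7 without reaching 100 CPM on average. Its 200 CPM rested on 11 UMIs. In astroglial cells the list of 10 leukocyte adhesion genes summed to 462, 305 and 329 CPM. Of the 5 Wnt pathway genes with enough counts, which keep the barrier, none was called. Of 3 flow response genes none was called, with *Klf2*, induced by shear stress, at 509, 343 and 933 CPM against 804, 1069 and 1474 (-0.96).

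**Figure D4:**
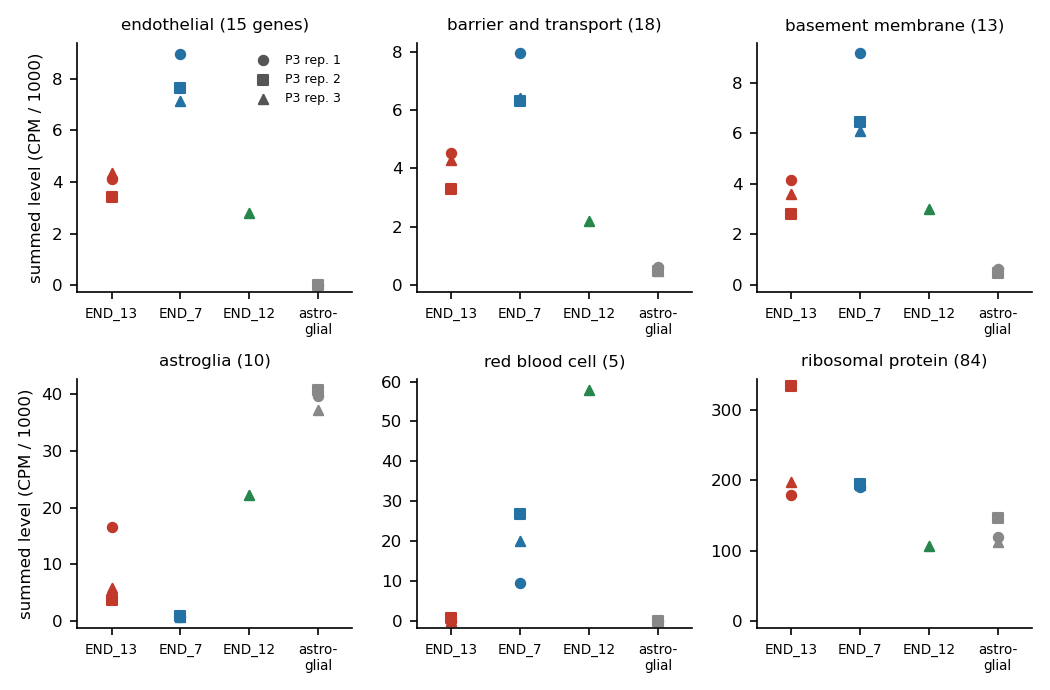
Summed level (CPM divided by 1000) of 6 gene lists in END_13, END_7, END_12 and the astroglial cells, where each symbol is a P3 library. Endothelial, barrier and basement membrane genes of END_13 lie between END_7 and the astroglial cells, astroglial genes of END_13 lie above END_7 in each library, and red blood cell genes of END_13 lie at 0, 662 and 38.2 CPM, far below END_7 and END_12.

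The genes higher in END_13 than in END_7 were mostly astroglial. Those with the largest ratios included *Ptprz1*, *Fabp7*, *Mt3*, *Hes5*, *Sox2*, *Slc1a3* and *Ednrb*. *Ptprz1*, a receptor phosphatase of glial progenitors, measured 2382, 563 and 665 CPM in END_13 against 48.7, 50.2 and 45.4 in END_7 (log2 ratio 3.86). *Fabp7* measured 10038, 1682 and 2625 CPM against 175, 373 and 207 (3.78), and *Slc1a3*, the glial glutamate transporter, 582, 221 and 371 against 21.3, 29.5 and 29.0 (3.05). END_13 and END_7 did not overlap in these 3 genes, and P3 replicate 1 was the highest. Of the 78 genes called higher, 61 (78.2%) were at least 5-fold higher in astroglial cells than in END_7, against 4.32% of all 1782 genes. The 10 astroglial genes summed to 16639, 3662 and 5858 CPM in END_13, which is 42.0%, 8.99% and 15.7% of the level in astroglial cells of the same library, whereas END_7 held 1.83%, 2.25% and 1.93%.

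The astroglial RNA was not confined to a few cells in P3 replicates 1 and 3. It made up a median of 1.94% of the UMIs of an END_13 cell in P3 replicate 1 and 0.559% in P3 replicate 3, with 1 of 42 and 8 of 282 cells at 0, and a median of 0.0198% in P3 replicate 2 with 5 of 15 at 0. In END_7 the medians were 0.0528%, 0.0455% and 0.0393%. In P3 replicate 2 the 5 END_13 cells of at most 5000 UMIs had no *Fabp7* UMI, against 221 UMIs in its 10 deep cells. With END_13 held to cells of at most 5000 UMIs, 32 of 1908 genes tested were called higher and 154 lower. Of these, 12 and 61 were shared with the first lists, and the log2 ratio of *Fabp7* was 1.75. What part of these transcripts came from outside the END_13 cells was not tested.

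Of the genes called higher, 17 were not at least 5-fold higher in astroglial cells than in END_7. Among them, *Hist1h1b*, a linker histone made in S phase, measured 746, 845 and 667 CPM in END_13 against 261, 234 and 324 in END_7 (1.40), and *Rrm2*, a subunit of ribonucleotide reductase, 200.04, 107 and 194.5 against 52.1, 33.3 and 71.3 (1.36). The gene *Hist1h1b* and those named in this paragraph other than cell cycle list members were singled out after their values had been seen. Of the 7 cell cycle genes with enough counts, 7 lay above 0 under both scalings, against 710 and 1610 of all 1782 genes, and *Rrm2* was called. The 16 genes of the list summed to 1309, 1378 and 1775 CPM in END_13 and 1278, 873 and 1161 CPM in END_7. These ranges did not overlap, the closest values being 1309 and 1278. In astroglial cells the list summed to 1605, 1344 and 1475 CPM, above END_7 in each library. What part of the END_13 level came from astroglial RNA was not tested. *Pcna*, the sliding clamp of DNA replication, measured 200.04, 122 and 103 CPM against 94.9, 69.7 and 78.7 (0.64), without overlap, while *Top2a*, active in mitosis, measured 72.7, 160 and 181 against 141, 67.1 and 127 (0.24), with overlap. *Nfia*, a transcription factor of glia, measured 473, 388 and 730 CPM against 119, 165 and 151 (1.70), and 401, 538 and 693 CPM in astroglial cells.

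The genes lower in END_13 than in END_7 were led by haemoglobin. The 4 globin genes *Hbb-bs*, *Hba-a1*, *Hba-a2* and *Hbb-bt* summed with *Alas2* to 0, 662 and 38.2 CPM in END_13, against 9602, 26883 and 20146 CPM in END_7 and 57864 CPM in END_12. No globin UMI was found in 42 of 42, 13 of 15 and 261 of 282 END_13 cells in P3 replicates 1, 2 and 3. END_7 was itself uneven, with no globin in 71.1%, 72.7% and 58.5% of its cells and 99.2%, 96.9% and 94.0% of its globin UMIs in the richest 18, 18 and 26 cells. All 346 END_12 cells of P3 replicate 3 held globin. Against the 4, 9 and 7 END_7 cells whose depth lay within that of END_13 the direction turned, with mean log2 ratios of 1.09 for *Hbb-bs*, 1.22 for *Hba-a1*, 1.30 for *Hba-a2* and 0.70 for *Hbb-bt*.

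Basement membrane and pericyte genes were among the other genes called lower. Of 9 basement membrane genes with enough counts, 8 were called lower in END_13 (*Col4a1*, *Col4a2*, *Lama4*, *Lamb1*, *Lamc1*, *Nid1*, *Hspg2* and *Fn1*) and all 9 lay below 0, with a median of -1.06. Among all 1782 genes, 6.34% were called lower and 1072 lay below 0. *Col4a1* measured 309, 419 and 465 CPM in END_13 against 1151, 952 and 1051 in END_7 (-1.37), and *Nid1*, which links laminin to collagen, 72.7, 91.4 and 83.1 against 391, 286 and 261 (-1.69). Of 6 pericyte and smooth muscle genes, 5 were called lower (*Rgs5*, *Kcnj8*, *Abcc9*, *Vtn* and *Higd1b*), with *Rgs5*, a regulator of G protein signals, at 546, 540.5 and 332.5 CPM against 1928, 1229 and 836 (-1.41). The 13 pericyte genes summed to 9.26%, 6.47% and 6.39% of the level in the pericyte cluster in END_13 and to 21%, 17.9% and 12.1% in END_7. The other genes of the 10 lowest were the iron carrier transferrin (*Trf*, -2.09), apolipoprotein D (*Apod*, -1.96) and the kinase *Pim3* (-1.80).

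**Figure D5:**
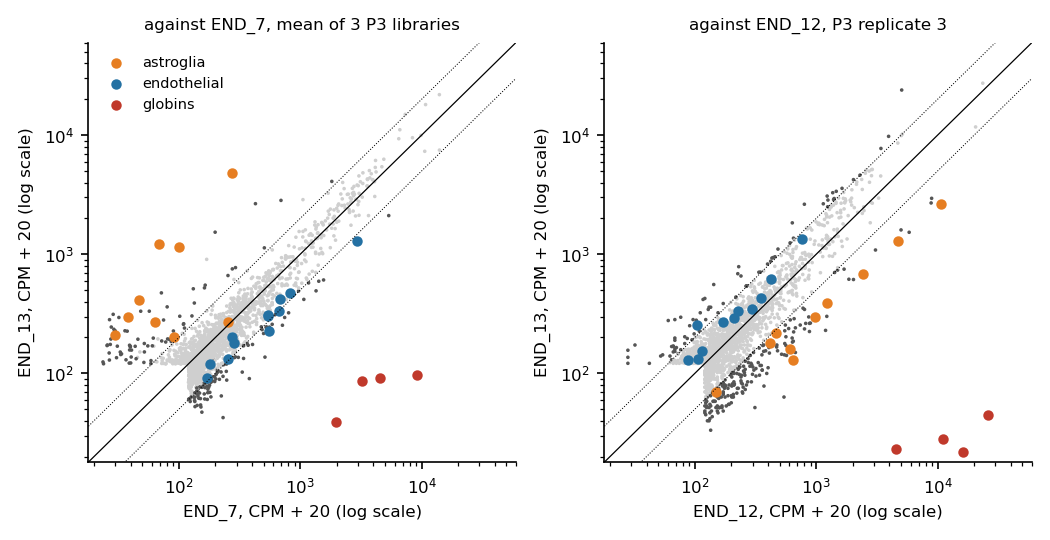
CPM + 20 of each gene compared in END_13 (vertical, log scale) against END_7 (left, mean of 3 P3 libraries) and END_12 (right, P3 replicate 3), where dotted lines mark 2-fold and dark points the genes called. Of the astroglial genes (orange), 7 of 9 lie above the lines on the left and all 10 below them on the right, endothelial genes (blue) lie below the diagonal on the left and above it on the right, and the 4 globin genes (red) lie far below in both.

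Genes of antigen presentation and of the Ly6 family, which mark brain endothelium, differed little between END_13 and END_7. *Ly6a* measured 109, 99.0 and 153 CPM in END_13 against 132, 81.4 and 109 in END_7 (0.14), *Ly6c1* 400.1, 236 and 276 against 299.5, 290 and 270 (0.05), and *B2m*, the light chain of MHC class I, 182, 206 and 183 against 256, 190 and 206 (-0.17). Each of the 3 overlapped between the clusters. Of 10 genes of this list with enough counts, *Ifitm1* (-1.53) and *Bst2* (-1.16), both antiviral membrane proteins, were called lower. Of 7 immediate early genes, which respond within minutes to stimulation or dissociation, *Junb* was called lower (90.9, 137 and 411 against 329, 537 and 530 CPM, -1.28) and none higher. Of 80 ribosomal protein genes, 65 lay above 0 (710 of all 1782 genes did) with a median of 0.22, and *Rps26* was called higher. Their sum was 179051, 333125 and 198066 CPM in END_13 against 190875, 194681 and 193776 in END_7, so P3 replicate 2, the library with most of its UMIs from deep cells, lay farthest from END_7.

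Removing a library changed the lists. Without P3 replicate 2, 124 of 1909 genes tested were called higher than END_7, and without P3 replicate 3, 203 of 1832 were called lower. Of 2007 genes tested against END_7 cells of the same depth, 191 were called higher and 286 lower, 70 and 70 of them shared with the first lists. With every cell thinned to 750 UMIs, 77 of 1960 genes tested were called higher and 233 lower. Of these, 36 and 81 were shared with the first lists of 78 and 113 genes.

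END_12 had the depth of END_13 and the same library, yet another composition. The comparison used P3 replicate 3 alone, 282 cells against 346, so it has no replicate check. Of 1886 genes with at least 100 CPM in either cluster, 79 (4.19%) were at least 2-fold higher in END_13 and 204 (10.8%) at least 2-fold lower. The 5 largest differences upward were *Slc6a6* (136 against 8.07 CPM, log2 ratio 2.48), *Ly6a* (153 against 12.1 CPM, 2.43), *Acta2* (116 against 8.07 CPM, 2.28), *Fth1* (23914 against 5043 CPM, 2.24) and *Nampt*, an enzyme of NAD synthesis (258 against 40.4 CPM, 2.2). *Tfrc*, the transferrin receptor through which brain endothelium takes up iron, measured 263 against 48.4 CPM (2.05). The 95% Poisson intervals of END_13 and END_12 did not overlap for these 5 largest, and for *Fth1* they were 23525 to 24308 and 4848 to 5245 CPM. The 5 genes were picked by their differences in these same cells, so this gives them no independent support. The intervals cover counting error only and not the spread between cells. From the lowest to the highest of 3 depth bins, *Fth1* measured 10412, 19091 and 28218 CPM in END_13. END_12 cells of the same depth ranges gave 4251, 5626 and 4818 CPM. Ribosomal protein genes lay above 0 in 80 of 80, with 18 called higher, against 979 and 79 of all 1886 genes.

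Endothelial genes lay higher in END_13 than in END_12. All 11 with enough counts lay above 0 and *Icam2* was called higher (1.29), with a median of 0.55 beside 0.03 for all 1886 genes. Of the 1886, 979 lay above 0 and 4.19% were called higher. Barrier genes had 5 of 12 called higher and 12 of 12 above 0, and capillary genes 3 of 8 called higher, *Car4* among them (637 against 220.0 CPM, 1.45). Both *Slc38a5* (766 against 210 CPM, 1.77) and *Ramp2* (1815 against 615.5 CPM, 1.53) were called higher. The scaling mattered here too. Scaled to the 15 endothelial genes, 10 of the 12 barrier genes lay above 0, against 291 of all 1886 genes, whose median was -0.55. Of all calls, 2.13% were higher in END_13 in place of 27.9%. Of the 11 endothelial genes 4 lay above 0, under a scaling that makes the sum of the 15 equal in both clusters.

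Below END_12, END_13 lacked globin and held less astroglial RNA. The 5 largest differences downward were the 4 globin genes and *Crym*, which encodes a thyroid hormone binding protein (43.2 against 523 CPM, -3.10). *Hbb-bs* measured 24.9 CPM in END_13 and 26204 CPM in END_12. All 10 astroglial genes were called lower, with a median of -1.76, and *Fabp7* measured 2625 against 10696 CPM (-2.02). Of the 204 genes called lower, 80.9% were at least 5-fold higher in astroglial cells than in END_7, against 9.92% of all 1886 genes. *Apln* was lower as well (123 against 337 CPM, -1.32), and *Col4a1* (465 against 402 CPM, 0.20) and *Rgs5* (332.5 against 343 CPM, -0.04) were not 2-fold apart. With END_12 held to the depth range of END_13 the counts were 78 and 204 of 1883 genes tested, sharing 74 and 198 genes. Other settings of depth shared fewer of the higher genes. With every cell thinned to 750 UMIs the counts were 113 and 191 of 1997, sharing 43 and 156. With END_13 cells of at most 5000 UMIs they were 67 and 167 of 1927, sharing 50 and 166.

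The deep cells of END_13 differed from the shallow ones. In the 25 cells with over 5000 UMIs, ribosomal protein genes reached 315181 CPM, against 164443 CPM in the 314 P3 cells of at most 5000, and *Rps12*, a protein of the small ribosomal subunit, 6562 against 1320 CPM. Endothelial genes summed to 3047 CPM in the deep cells and 4838 in the others, and astroglial genes to 3442 and 7846. *Madcam1* measured 34.9 CPM in the deep cells and 108 in the others, and *Aplnr* 94.2 and 79.8. For 20 of the 25 deep cells the nearest cell of another cluster on the map was in END_7. Split by depth into 3 bins of 94 cells within P3 replicate 3, the lowest bin had 12.6 CPM of *Madcam1* from 1 UMI, the middle 108 and the highest 117, while endothelial genes went from 6457 to 4788 to 3803 CPM.

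The 2 cells of 3m replicate 3 lay outside the 3 islands. They had 1023 and 893 UMIs and 5 and 6 of the endothelial genes, with 3 *Cldn5* UMIs in 1 of them, and none of the 4 markers, *Fabp7* or globin. The other had 14 UMIs of *Mbp*, a myelin gene. On the map the nearest cell of another cluster was in END_17 for both.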

How the data were processed

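The authors mapped reads to mm10 with Cell Ranger and deposited UMI counts of 32285 genes in 16690 barcodes without normalization, and annotated in Seurat those barcodes that had more than 500 genes and a mitochondrial share below 10%. The deposited UMAP coordinates are a score without unit. Members and gene lists were chosen with earlier results of these data known. Counts were summed per library and cluster and scaled to CPM. Cluster contrasts got no test, since the clusters were made from these genes. Genes named were the 4 markers, members of described lists, the 10 (END_7) or 5 (END_12) largest differences each way, and others singled out after their values were seen. Some genes that this rule would name are not reported here. Doublets were not removed and no caller was run. Thinning to 750 UMIs kept 94.4% of END_13 cells. Shares and medians were compared over libraries by exact permutation, so p-values measure only the spread between preparations. Deviations of same-numbered P3 and 3m libraries from their age means correlated at 0.559, 0.497 and 0.185 over 2920 genes, and the labels state no such pairing. P3 replicate 2 with 3m replicate 3 gave 0.228 and P3 replicate 3 with 3m replicate 2 gave 0.108, while the other unlike pairs gave -0.504 to -0.191. The pairing was thus not clear for replicate 3. Intervals are Wilson for shares of all cells and Poisson for counts. The script was tested on simulated data. Analyses used Python 3.11.15, scipy 1.17.1 and pandas 2.3.3.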

Additional observations from a re-analysis of the deposited data

Results flagged for a closer look

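Endothelial RNA also appeared in barcodes that no cluster holds, those with at most 500 genes, above the level that a count of 0 allows. A few UMIs pass that limit, and the background of such barcodes was not measured. The 15 endothelial genes summed to 953 CPM in the 531 such barcodes of P3 replicate 3, against 251 CPM in the 114 of P3 replicate 2 and 319 CPM in the 61 of P3 replicate 1. At 3m they summed to 119, 147 and 80.2 CPM in replicates 3, 2 and 1. Counts of 0 would allow 7.90, 21.5 and 33.0 CPM in P3 replicates 3, 2 and 1 and 22.3, 33.8 and 20.05 CPM in 3m replicates 3, 2 and 1. P3 replicate 3, which held 282 END_13 cells, had the highest value, and 76 of its 531 barcodes had at least 2 of the endothelial genes, against 6 of 114 and 4 of 61. *Slc38a5* gave 39 UMIs there and 0 in the other libraries, and *Madcam1* gave 0 in all 6.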

How the results depend on the processing

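Some alternatives were chosen after seeing the data: cells weighted equally, END_13 cells of at most 5000 UMIs, scaling to the 15 endothelial genes, the log2 ratio of the medians (-3.60), shallow cells of island 1, and islands at a distance of 0.2, which gave the same 108 and 236 genes. The age difference in share ranged from 0.974 to 3.57 points with 1 library left out (lowest without P3 replicate 3) and the depth difference from -28124 to -20433 UMIs, and with the replicate block the share gave the same 2.49 points with exact permutation p = 0.25, the smallest that 3 pairs can give. Genes higher and lower than END_7 (78 and 113 of 1782 tested) ranged from 55 to 124 and from 99 to 203 with 1 P3 library left out, where 1692 to 1909 were tested. They numbered 191 and 286 of 2007 tested against END_7 cells of the same depth, and 180 and 226 of 13249 with no minimum of 100 CPM. With a minimum of 300 CPM they numbered 20 and 38 of 558, and scaled to endothelial genes 898 and 11 of 2805. After thinning to 750 UMIs 77 of 1960 were higher and 233 lower, and with END_13 cells of at most 5000 UMIs 32 of 1908 were higher. Against END_12 (79 and 204 of 1886) they numbered 150 and 378 of 8717 under no minimum and 42 and 78 of 598 under the 300 CPM minimum. Under endothelial scaling they numbered 9 and 413 of 1686. The share of thinned cells with *Aplnr*, 4.66% on average over the 3 P3 libraries, was 9.43% at 1000 UMIs. Haemoglobin log2 ratios turned to 1.22 (*Hba-a1*), 1.30 (*Hba-a2*), 1.09 (*Hbb-bs*) and 0.70 (*Hbb-bt*) against END_7 cells of the same depth (4, 9 and 7 cells). Of the other values of named genes, 562 moved by less than the spread between replicates or their interval and 120 by more. The number of genes tested differed between these settings, and the cause of the changed counts and values was not tested. *Madcam1* and *Aplnr* had 64 and 67 UMIs in all of END_13, which limited their precision.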
